A study of Mus musculus with 18 samples.

Results

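The comparison described here was that of isoproterenol (ISO) with its vehicle DMSO in brown adipocytes in which ABHD5 was knocked down. Its members were the 6 libraries without doxycycline (Dox), 3 with ISO and 3 with DMSO, of the 18 libraries in the series, chosen by the treatment and Dox status in their titles. The question was which responses to the agonist proceed in these cells, over all genes and by pathway and gene class. The cells came from 1 immortalised mouse brown preadipocyte line, differentiated for 6 days with 0.125 mM indomethacin in the differentiation mix. All groups carried the same stable lentiviral shRNA against Abhd5 and a lentiviral construct (pINDUCER20) for an shRNA-resistant, mCherry-tagged ABHD5 that is made when Dox is added. Without Dox the cells were therefore the knockdown state, and Dox at 1 µg/ml for 24 to 48 h gave the rescued state. ISO was given at 10 nM for 3 h. For comparison, the 6 ISO and DMSO libraries with Dox are used below. The libraries treated with SR-3420 entered only through the fit, in the filter on low counts, the scaling and the estimate of the spread. Cells without the shRNA were not analysed here, so the knockdown itself was not compared with untouched cells.

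ISO is an agonist of all β-adrenergic receptors. These receptors couple through a stimulatory G protein to adenylyl cyclase, which makes cyclic AMP (cAMP), and cAMP releases the catalytic subunits of protein kinase A (PKA). PKA phosphorylates the transcription factor CREB, which binds the cAMP response element (CRE) in the promoters of fast genes such as the Nr4a receptors and Crem, and it also phosphorylates lipid droplet proteins. The latter step frees ABHD5 from perilipin so that it can activate the lipase ATGL. The fatty acids that are released serve as fuel, activate the uncoupling protein UCP1 and act as ligands of the PPAR nuclear receptors. A brown adipocyte with little ABHD5 therefore receives the cAMP signal with a weakened lipolytic arm.

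Depth and library quality set what could be seen. The 3 DMSO libraries held 1036135, 689910 and 877797 counts and the 3 ISO libraries 904531, 1121622 and 1351168 counts, over 17672 genes. The median gene had 8 to 14 counts in a library. The study's methods name the gene counting option of iRNA-seq, but the counted length in the deposited table followed intron length (within 10% for 72.6% of 16536 matched genes) rather than exon length (2.27%). The counts were therefore taken as reads in introns, and if so they follow unspliced RNA more than mature mRNA. If they were instead reads over whole genes, mature mRNA would enter every value. Myo3a alone gave 7.70% to 13.7% of the counts. The 10 genes with most counts took 18.5% to 21.0% of 5 libraries but 26.5% of ISO replicate 2, so for a number of gene lists the counts are also given without that library. All values per library are CPM, counts scaled to a common library size with TMM factors, given in the order of replicates 1, 2 and 3. A gene rose or fell where the quasi-likelihood test of edgeR gave an adjusted p of 0.05 or less, and it was called where it also changed at least 2-fold, a log2 fold change (log2FC) of 1 or more in size. Log2FC is given with its standard error.

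Abhd5 was read first, since it is the target of the knockdown. Its counted reads (NM_026179, chromosome 9, 122260734 to 122290641, plus strand of mm9) stood at 47.2, 55.8 and 54.8 CPM with DMSO and 173, 145 and 130 CPM with ISO. The groups did not overlap, and the log2FC was 1.5 ± 0.18 (adjusted p = 3.34e-07). With Dox the gene gave 583, 656 and 484 CPM with DMSO and 813, 859 and 808 CPM with ISO. Every library without Dox thus lay below every library with Dox. What the higher counts with Dox stem from was not tested. These reads separate the libraries by their Dox labels, and neither the size of the knockdown in mRNA nor that in protein follows from them.

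ISO moved a large part of the transcribed genes in the knockdown cells, in both directions. Of 10178 genes with enough counts to be tested, 1471 rose (14.5%) and 1375 fell (13.5%). Of these, 591 were called higher (5.81% of the genes tested) and 517 were called lower (5.08%). The larger changes were mostly increases, since 114 called genes were higher and 36 lower by 4-fold or more, 32 were higher and 2 lower by 8-fold or more, and 11 were higher and 0 lower by 16-fold or more. The median log2FC was 1.37 among genes called higher and -1.32 among genes called lower, beside -0.01 over all genes tested. The ISO libraries lay wholly above the DMSO libraries in 563 of the 591 genes called higher and wholly below them in 484 of the 517 called lower. Over all genes tested, 20.0% had ISO wholly above and 19.8% wholly below. The split between directions depended on the scaling: with library totals alone, 411 genes were called higher and 833 lower, and the median log2FC of all genes was then -0.19, against -0.01 with TMM.

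**Figure D1:**
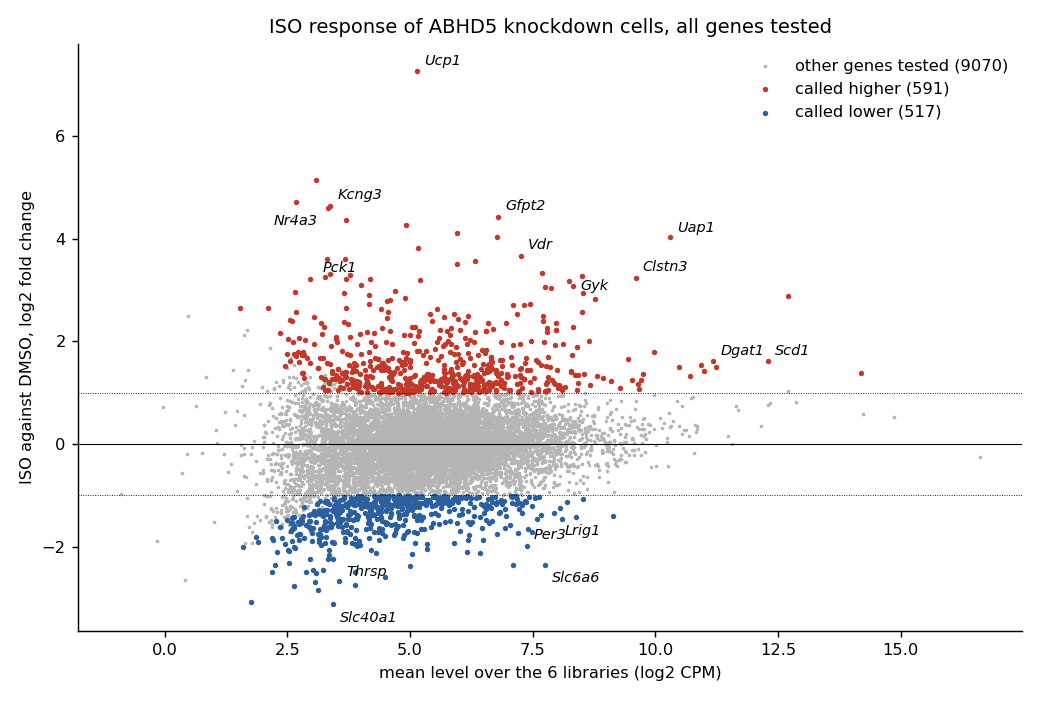
Log2FC of ISO against DMSO without Dox on the vertical axis against the mean level over the 6 libraries in log2 CPM on the horizontal axis, for the 10178 genes tested. Coloured points are the 591 genes called higher and the 517 called lower, and the named genes reach from Ucp1 at the top to Slc40a1 at the bottom.

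The genes called higher with the smallest p belonged to several classes. Pde10a, a phosphodiesterase that breaks down cAMP and cGMP, gave 44.5, 31.3 and 33.5 CPM with DMSO and 348, 396 and 378 CPM with ISO, a log2FC of 3.33 ± 0.16 (adjusted p = 3.4e-15). Cpne8, a calcium-dependent membrane-binding protein of the copine family, gave 63.2, 63.9 and 53.8 CPM with DMSO and 523, 584 and 525 CPM with ISO (3.17 ± 0.14, adjusted p = 6.02e-16). In both genes the lowest ISO library was far above the highest DMSO library. Uap1 and Gfpt2 act in the hexosamine pathway, which makes the sugar donor for protein glycosylation. Uap1, the pyrophosphorylase that forms UDP-N-acetylglucosamine, gave 153, 110 and 172 CPM with DMSO and 2607, 2365 and 2181 CPM with ISO (4.02 ± 0.20, adjusted p = 4.11e-15). Gfpt2, an enzyme of the committed entry step, gave 9.79, 8.16 and 11.2 CPM with DMSO and 267, 189 and 184 CPM with ISO (4.42 ± 0.22, adjusted p = 4.11e-15). The increase was largest in ISO replicate 1 for both genes, and no ISO library approached a DMSO library. Vdr, the vitamin D receptor, gave 15.1, 25.8 and 27.4 CPM with DMSO and 311, 286 and 254 CPM with ISO (3.66 ± 0.21, adjusted p = 1.69e-13). Clstn3, a calsyntenin of the cell membrane, rose by 3.23 ± 0.18 on the log2 scale, from 142, 174 and 133 CPM to 1666, 1232 and 1303 CPM. St3gal1, a sialyltransferase, rose by a log2FC of 2.95, the repressor Nfil3 by 2.74, the laminin chain Lamb1 by 2.57 and the activin receptor Acvr1b by 2.26.

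Slc6a6, the taurine transporter, led the genes called lower by p. It gave 345, 371 and 370 CPM with DMSO and 48.6, 68.4 and 90.1 CPM with ISO, a log2FC of -2.36 ± 0.16 (adjusted p = 2.13e-12). Fam13a gave 249, 193 and 244 CPM with DMSO and 33.5, 50.6 and 48.8 CPM with ISO (-2.36 ± 0.18, adjusted p = 4.09e-11). Per3, a member of the period family of the circadian clock, gave 254, 241 and 301 CPM with DMSO and 49.7, 83.3 and 67.6 CPM with ISO (-1.98 ± 0.16, adjusted p = 1.04e-10). In each of these genes every ISO library was below every DMSO library by a wide margin. Lrig1, which restrains growth factor receptors, fell from 356, 375 and 322 CPM to 143, 139 and 132 CPM (-1.35 ± 0.13, adjusted p = 7.67e-09). The log2FC was -1.88 for the glutathione transferase Mgst2, -1.75 for the CTP synthase Ctps2, -1.74 for Trafd1, -1.72 for Lzts2, -1.42 for Ivns1abp and -1.18 for the DNA repair gene Rad54b.

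**Figure D2:**
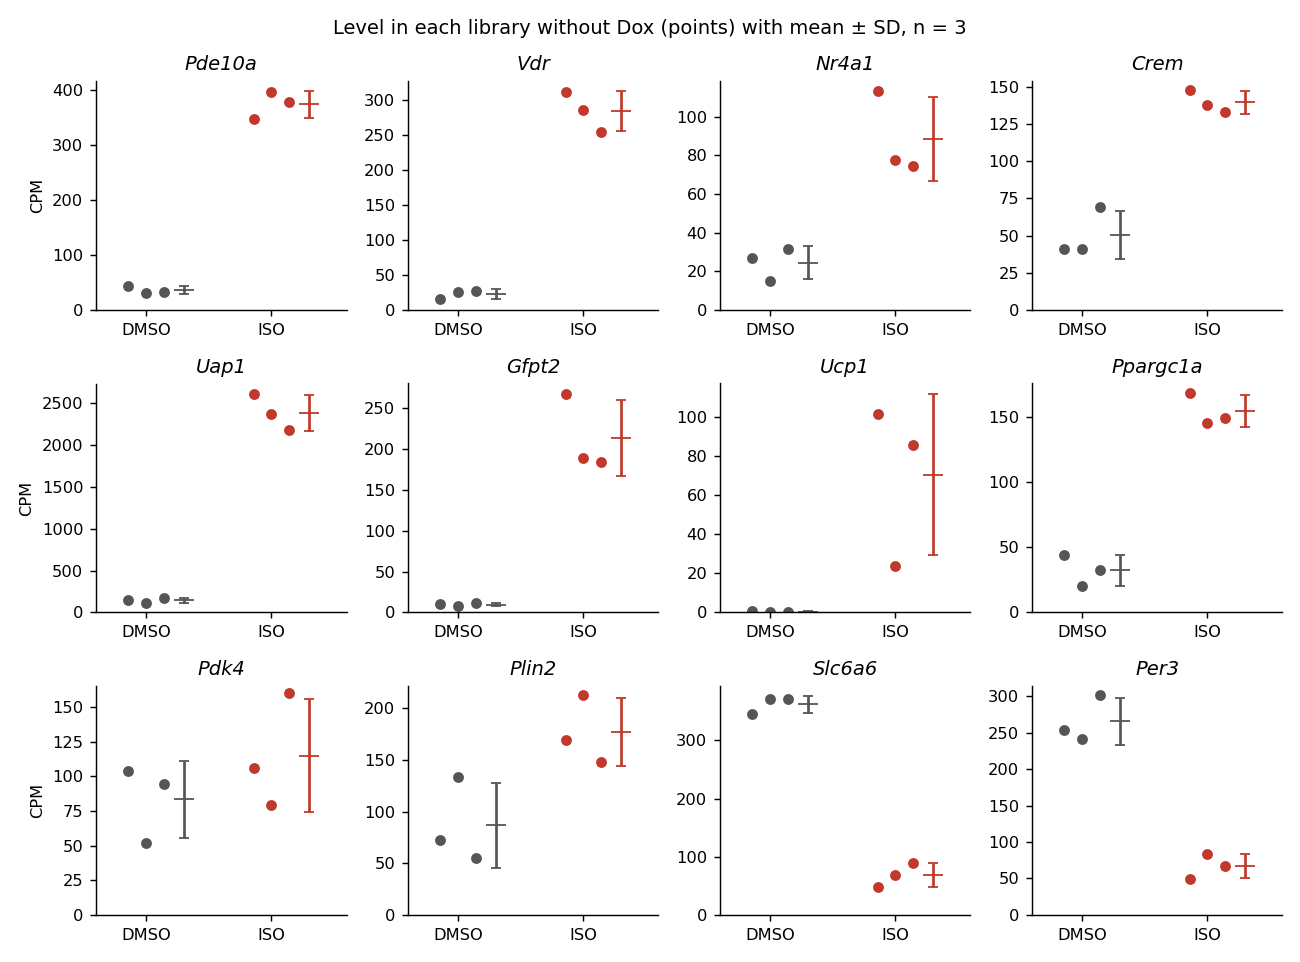
Level of 12 named genes in each of the 6 libraries without Dox, in CPM on axes that start at 0, with 1 point per library (grey DMSO, red ISO) and bars for the mean ± SD (n = 3). In Uap1, Pde10a and Nr4a1 all ISO points lie above the DMSO points, in Slc6a6 and Per3 they lie below, and in Pdk4 the groups overlap.

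Of the cAMP-induced early genes, which are rapid targets of CREB and related factors, 15 of 20 tested members rose and 1 fell, and the median log2FC was 1.53, beside 14.5% that rose and 13.5% that fell of all genes. Called were 13 higher and 1 lower, beside 5.81% and 5.08%. Over the 26 members measured, tested or not, the sum was 1776 to 1919 CPM with DMSO and 3853 to 4150 CPM with ISO. These groups did not overlap. The 3 Nr4a orphan nuclear receptors, classic early targets of cAMP, all rose. Nr4a1 gave 26.7, 14.96 and 31.4 CPM with DMSO and 113, 77.3 and 74.3 CPM with ISO (1.80 ± 0.26, adjusted p = 6.15e-06). Nr4a2 gave 2.67, 5.44 and 1.01 CPM with DMSO and 17.3, 12.9 and 15.01 CPM with ISO (2.37 ± 0.50, adjusted p = 0.000735). Nr4a3 had 0, 0 and 2 counts with DMSO and 16, 24 and 23 counts with ISO, which is at least 5.96-fold higher when set against a floor of 3 counts per library (adjusted p = 3.79e-06). Crem, which encodes activators and the inducible repressor ICER of the CREB family, gave 40.9, 40.8 and 69.0 CPM with DMSO and 148, 138 and 133 CPM with ISO (1.46 ± 0.18, adjusted p = 4.47e-07). Sik1, a kinase that restrains the CREB co-activators, rose by 1.99, from 8.16 to 9.79 CPM with DMSO to 32.7 to 41.1 CPM with ISO. The early gene that fell was Egr1, a serum-responsive factor, which gave 17.8, 10.9 and 23.3 CPM with DMSO and 6.48, 1.98 and 5.25 CPM with ISO (-1.93 ± 0.49, adjusted p = 0.00421). With ISO replicate 2 left out the list again gave 15 that rose and 1 that fell.

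The promoters of 6 of these responding genes are shown because they hold the CRE letters that CREB is known to bind. Nr4a1, Nr4a3 and Ppargc1a are early or regulatory genes, Slc25a25 is a mitochondrial carrier, and Uqcrfs1 and Cycs belong to the respiratory chain; the choice, which also took Uqcrfs1 from outside the rule for named genes, was made after their values were seen. Each line gives the 250 bases before the gene's start, 5′ to 3′ on the gene's strand, from RefSeq on GRCm38.p6, a later build than the mm9 of the counts. Capitals mark the full CRE (TGACGTCA) or its core (TGACG), on either strand.
Nr4a1 (chr15:101266596-101266845, plus strand): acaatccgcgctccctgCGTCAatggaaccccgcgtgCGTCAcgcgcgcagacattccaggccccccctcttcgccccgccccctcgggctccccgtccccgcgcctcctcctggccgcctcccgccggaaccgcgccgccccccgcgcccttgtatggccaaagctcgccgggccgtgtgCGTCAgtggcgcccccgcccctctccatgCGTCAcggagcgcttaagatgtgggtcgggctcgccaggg
Nr4a3 (chr4:48045055-48045304, plus strand): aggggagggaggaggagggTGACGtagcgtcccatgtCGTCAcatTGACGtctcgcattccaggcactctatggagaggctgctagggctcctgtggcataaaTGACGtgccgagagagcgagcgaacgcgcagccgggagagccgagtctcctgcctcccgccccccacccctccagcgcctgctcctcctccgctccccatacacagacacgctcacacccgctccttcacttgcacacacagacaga
Ppargc1a (chr5:51567726-51567975, minus strand): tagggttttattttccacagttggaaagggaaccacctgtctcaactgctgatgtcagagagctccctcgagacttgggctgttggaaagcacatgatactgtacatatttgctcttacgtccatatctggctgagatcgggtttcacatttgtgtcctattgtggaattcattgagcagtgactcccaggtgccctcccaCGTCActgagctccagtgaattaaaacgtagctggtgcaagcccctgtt
Slc25a25 (chr2:32424067-32424316, minus strand): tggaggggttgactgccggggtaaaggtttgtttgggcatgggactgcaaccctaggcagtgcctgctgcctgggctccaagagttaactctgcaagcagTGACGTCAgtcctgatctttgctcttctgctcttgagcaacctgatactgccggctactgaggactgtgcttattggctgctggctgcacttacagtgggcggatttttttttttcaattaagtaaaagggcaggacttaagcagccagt
Uqcrfs1 (chr13:30545317-30545566, minus strand): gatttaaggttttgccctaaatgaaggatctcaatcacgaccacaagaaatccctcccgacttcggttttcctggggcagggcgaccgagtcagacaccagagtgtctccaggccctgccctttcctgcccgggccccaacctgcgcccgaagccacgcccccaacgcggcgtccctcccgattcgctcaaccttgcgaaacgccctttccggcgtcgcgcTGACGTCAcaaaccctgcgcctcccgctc
Cycs (chr6:50566570-50566819, minus strand): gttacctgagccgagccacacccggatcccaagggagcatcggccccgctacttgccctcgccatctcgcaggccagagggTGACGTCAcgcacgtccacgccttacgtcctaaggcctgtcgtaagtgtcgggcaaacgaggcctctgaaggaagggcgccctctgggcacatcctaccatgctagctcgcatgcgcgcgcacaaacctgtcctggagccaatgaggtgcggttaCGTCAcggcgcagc
Nr4a1 and Nr4a3 each held 4 cores within these bases, Ppargc1a held 1, and Cycs held 1 core besides its full site. Slc25a25, Uqcrfs1 and Cycs held a full CRE, whose first base lay 150, 29 and 169 bases before the start. Slc25a25, the carrier that exchanges ATP-Mg for phosphate across the inner membrane, gave 6.23, 8.16 and 7.10 CPM with DMSO and 38.9, 35.7 and 42.0 CPM with ISO (2.45 ± 0.30). Cycs, which encodes cytochrome c, gave 25.8, 25.8 and 26.4 CPM with DMSO and 121, 65.4 and 104 CPM with ISO (1.89 ± 0.23). Uqcrfs1, the iron-sulphur protein of complex III, gave 5.34, 1.36 and 2.03 CPM with DMSO and 24.9, 11.9 and 11.3 CPM with ISO (2.27 ± 0.54).

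Across all genes these letters were spread widely. At least 1 promoter window, from 250 bases before to 50 after a start, was matched for 8183 of the 10178 genes tested. Among them were 473 called higher and 397 called lower. The 8183 genes had 10611 windows, and a gene counted as a match if any of its windows matched. Genes with more starts thus had more chances of a match. The full CRE, read on both strands, stood in 3.59% of the 8183 genes. The share was 4.44% (21 genes) among those called higher and 2.02% (8 genes) among those called lower. The core TGACG, which every full CRE also contains, stood in 36.7%, 35.7% and 28.0%. Of the early genes, 17 of 20 had a window, of which 12 held the core and 1 a full CRE. The E-box CACGTG stood in 12.2% of the 8183 genes, 10.99% of those called higher and 9.82% of those called lower. For the AP-1 letters TGANTCA the shares were 6.09%, 7.4% and 5.79%. The direct repeat of AGGTCA with 1 base between, a form that PPAR and RXR bind, stood in 3 of the 8183 genes and in 0 of those called. A match is a description of letters in a short window and says nothing on binding.

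Within the signalling chain itself, counts by list are read beside the 14.5% that rose and 13.5% that fell of all genes. Adrb3, the β3-adrenergic receptor, gave 24.0, 5.44 and 22.3 CPM with DMSO and 40.0, 9.91 and 42.0 CPM with ISO, which overlapped (0.76, adjusted p = 0.425, and 0.027 with no filter on low counts). Of 11 tested receptor, G protein and adenylyl cyclase genes, 3 rose and 1 fell, and 0 fell without ISO replicate 2. Adcy3, an adenylyl cyclase, was the 1 called, from 59.6, 68.0 and 71.0 CPM to 417, 285 and 348 CPM (2.4 ± 0.18, adjusted p = 2.03e-11). Adcy6 rose by 0.89 and the inhibitory G protein subunit Gnai2 fell by 0.44, a result that did not pass when any 1 of the 6 libraries without Dox was left out (adjusted p = 0.0524 to 0.127). Of 17 phosphodiesterases tested 5 rose, including Pde10a, Pde4b (1.59), Pde3b (0.72) and Pde4d (0.60), while 1 fell (5 and 0 without ISO replicate 2). The Pde4d result did not pass with library totals only (0.43, adjusted p = 0.0806). Of 15 PKA subunits and anchors 6 rose and 1 fell, with the regulatory subunit Prkar1a at 0.65 and the anchor Akap11 at 0.85. Of 16 genes of receptor desensitisation and RGS proteins 3 rose and 2 fell, near the shares of all genes, and without ISO replicate 2 0 rose. Among CREB, CRTC and SIK genes, 7 of 17 rose and 2 fell.

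Of 16 tested genes for MAPK phosphatases and Sprouty proteins, feedback brakes on growth factor signalling, 5 rose and 4 fell, and without ISO replicate 2 these were 3 and 2, near the 14.5% and 13.5% of all genes. Dusp5, a nuclear ERK phosphatase, rose by a log2FC of 3.82 and Dusp10, a phosphatase of the stress kinases JNK and p38, by 2.16. Among AP-1, ATF and C/EBP factors 4 of 15 rose and 0 fell. Fosl1, a Fos-related AP-1 subunit, rose by 3.51. Junb, Cebpa, Cebpb, Cebpd and Atf4 were not analysed here.

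Of 21 tested thermogenic genes 12 rose, 0 fell and 9 did not pass in the knockdown cells, beside 14.5% that rose and 13.5% that fell of all genes, and the median log2FC was 0.90. Ucp1, the uncoupling protein that gives brown fat its heat, had 1, 0 and 0 counts with DMSO and 94, 24 and 114 counts with ISO. It was at least 21.5-fold higher against the floor of 3 counts per library, and ISO replicate 2 held the fewest counts of the 3. Ppargc1a, the co-activator PGC-1α of mitochondrial biogenesis, gave 44.5, 20.4 and 32.5 CPM with DMSO and 169, 146 and 149 CPM with ISO (2.19 ± 0.32, adjusted p = 7.08e-06). Alpl, a phosphatase that takes part in the creatine cycle of thermogenic fat, rose by 3.57, the Ucp1 activator Zfp516 by 2.20 and, named after its values were seen, the brown fat regulator Prdm16 by 1.76. Dio2, the deiodinase that activates thyroid hormone, had 0 counts in all 6 libraries and was not tested. With Dox the ISO libraries gave 289, 135 and 299 CPM of Ucp1, and without Dox 102, 23.8 and 85.6 CPM.

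Of 76 tested nuclear-encoded subunits of oxidative phosphorylation, 39 rose, 0 fell and 37 did not pass, against 14.5% that rose and 13.5% that fell of all genes. Of these 7 were called higher, and the median log2FC was 0.47. Besides Cycs and Uqcrfs1, Cox6a1 of cytochrome oxidase gave 56.9, 57.1 and 70.0 CPM with DMSO and 136, 101 and 139 CPM with ISO (1.03), and Atp5o of ATP synthase rose by 0.83. Ribosomal protein genes moved in the same direction, with 39 of 69 higher, 1 lower and a median of 0.63. Rpl27 gave 62.3, 78.9 and 76.1 CPM with DMSO and 231, 135 and 170 CPM with ISO (1.31), while Rpl5 fell by 0.75. Proteasome subunits gave 9 of 37 higher and 0 lower, with Psmb5 at 1.53. Change varied with counted length: 98.6% of the ribosomal protein genes, 59.2% of the oxidative phosphorylation genes and 35.1% of the proteasome genes were among the 2036 genes tested with the shortest counted length (up to 6569 bases), of which 16.7% rose, 8.10% fell and the median was 0.10. The part of length in these results was not tested. Without ISO replicate 2 the counts were 41 and 0 for oxidative phosphorylation and 40 and 1 for ribosomal proteins. Of 39 mitochondrial carriers 11 rose and 4 fell (12 and 2 without ISO replicate 2), and besides Ucp1 and Slc25a25 the NAD carrier Slc25a51 gave 45.4, 29.9 and 50.7 CPM with DMSO and 310, 238 and 292 CPM with ISO (2.71 ± 0.18).

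**Figure D3:**
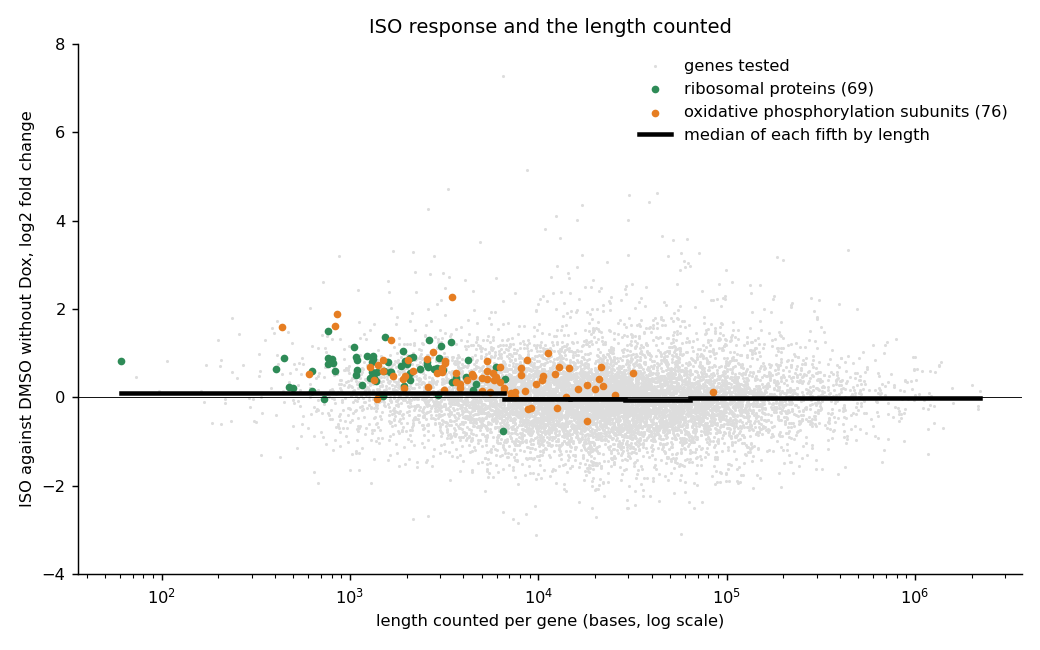
Log2FC of ISO against DMSO without Dox on the vertical axis against the counted length of each gene in bases on a logarithmic horizontal axis, with the 69 ribosomal protein genes in green, the 76 oxidative phosphorylation genes in orange, other genes tested in grey, and black lines for the medians of 5 length classes of equal size. The median over all genes is 0.10 in the shortest class, and the medians of the ribosomal protein and oxidative phosphorylation genes are 0.63 and 0.47.

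Of 25 tested PPAR target genes, the set that fatty acid ligands are known to activate, 8 rose and 5 fell, beside 14.5% and 13.5% of all genes, and the median log2FC was 0.45. Less the median of all genes it was 0.4566, but 0.2238 without ISO replicate 3. Those that rose were led by genes for making glycerol phosphate. Gyk, glycerol kinase, gave 77.4, 58.5 and 65.9 CPM with DMSO and 643, 460 and 622 CPM with ISO (3.08 ± 0.24, adjusted p = 1.04e-10). Pck1, the enzyme PEPCK of glyceroneogenesis, gave 3.56, 4.08 and 3.04 CPM with DMSO and 37.8, 16.9 and 43.5 CPM with ISO (3.21 ± 0.53, adjusted p = 4.28e-05). Plin2, a lipid droplet coat protein, gave 72.1, 133 and 54.8 CPM with DMSO and 170, 213 and 148 CPM with ISO (1.06 ± 0.26, adjusted p = 0.00289), with all ISO libraries above all DMSO libraries. Cpt1a, which moves fatty acids into mitochondria, rose by 1.40, from 32.0, 28.6 and 23.3 CPM to 73.5, 83.3 and 67.6 CPM. Members that fell included Ehhadh, a peroxisomal β-oxidation enzyme, from 16.02, 13.6 and 16.2 CPM to 3.24, 4.96 and 3.75 CPM (-1.93), and the glycerol channel Aqp7, from 127, 93.9 and 137 CPM to 59.4, 56.5 and 81.1 CPM (-0.86). Pdk4, the kinase that shuts pyruvate dehydrogenase, gave 104, 51.7 and 94.3 CPM with DMSO and 106, 79.3 and 160 CPM with ISO (0.45 ± 0.27, adjusted p = 0.229, and 0.0466 with no filter on low counts), and its groups overlapped. Ppara, the PPAR of fatty acid oxidation, gave 15.1, 8.16 and 25.4 CPM with DMSO and 4.32, 7.93 and 19.5 CPM with ISO, which overlapped as well (-0.55, adjusted p = 0.605). Hilpda, an inhibitor of ATGL on lipid droplets, had 2, 1 and 0 counts with DMSO and 12, 6 and 5 counts with ISO, at least 2.32-fold higher against the floor (adjusted p = 0.0196), but this did not pass without DMSO replicate 3 (adjusted p = 0.0985) or ISO replicate 1 (adjusted p = 0.128).

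Fatty acid oxidation genes mostly did not pass the test. Of 31 tested, 4 rose and 1 fell (6 and 1 without ISO replicate 2), and the median log2FC was 0.07 (less that of all genes, -0.0069 to 0.1712 without 1 library), so the share that rose was near the 14.5% of all genes. The carnitine acetyltransferase Crat rose by 1.1. Of 19 lipolysis and lipid droplet genes 6 rose and 3 fell. Among them Cidec, which fuses lipid droplets, gave 309, 428 and 307 CPM with DMSO and 190, 282 and 253 CPM with ISO (-0.52, adjusted p = 0.0199), a result that did not pass without DMSO replicate 2 (-0.35, adjusted p = 0.146) or ISO replicate 1 (-0.37, adjusted p = 0.145). Abhd6, a monoacylglycerol lipase, fell by 1.71. Of 20 genes for glyceroneogenesis and triglyceride synthesis 5 rose and 2 fell, with Dgat1, the acyltransferase that forms triglyceride, at 1081, 1321 and 1017 CPM with DMSO and 3527, 3786 and 3216 CPM with ISO (1.62). Of 18 genes of fatty acid uptake and activation 7 rose and 2 fell (7 and 1 without ISO replicate 2), with the acyl-CoA synthetase Acsl4 at 3.04 and Acsl1 at 0.94.

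Of 41 genes of fatty acid and sterol synthesis 15 rose and 2 fell, beside 14.5% and 13.5% of all genes, and the median log2FC was 0.41. Scd1, the desaturase that makes oleate, gave 2385, 2861 and 2128 CPM with DMSO and 9207, 6515 and 7018 CPM with ISO (1.63). Acaca, acetyl-CoA carboxylase, rose as well, the sterol enzyme Hsd17b7 by 2.35 and phosphomevalonate kinase Pmvk by 1.21. In each of these genes the ISO libraries lay above the DMSO libraries. Thrsp, a factor that promotes lipogenesis, went the other way, from 16.9, 21.8 and 22.3 CPM to 4.32, 1.98 and 3.00 CPM (-2.67).

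**Figure D4:**
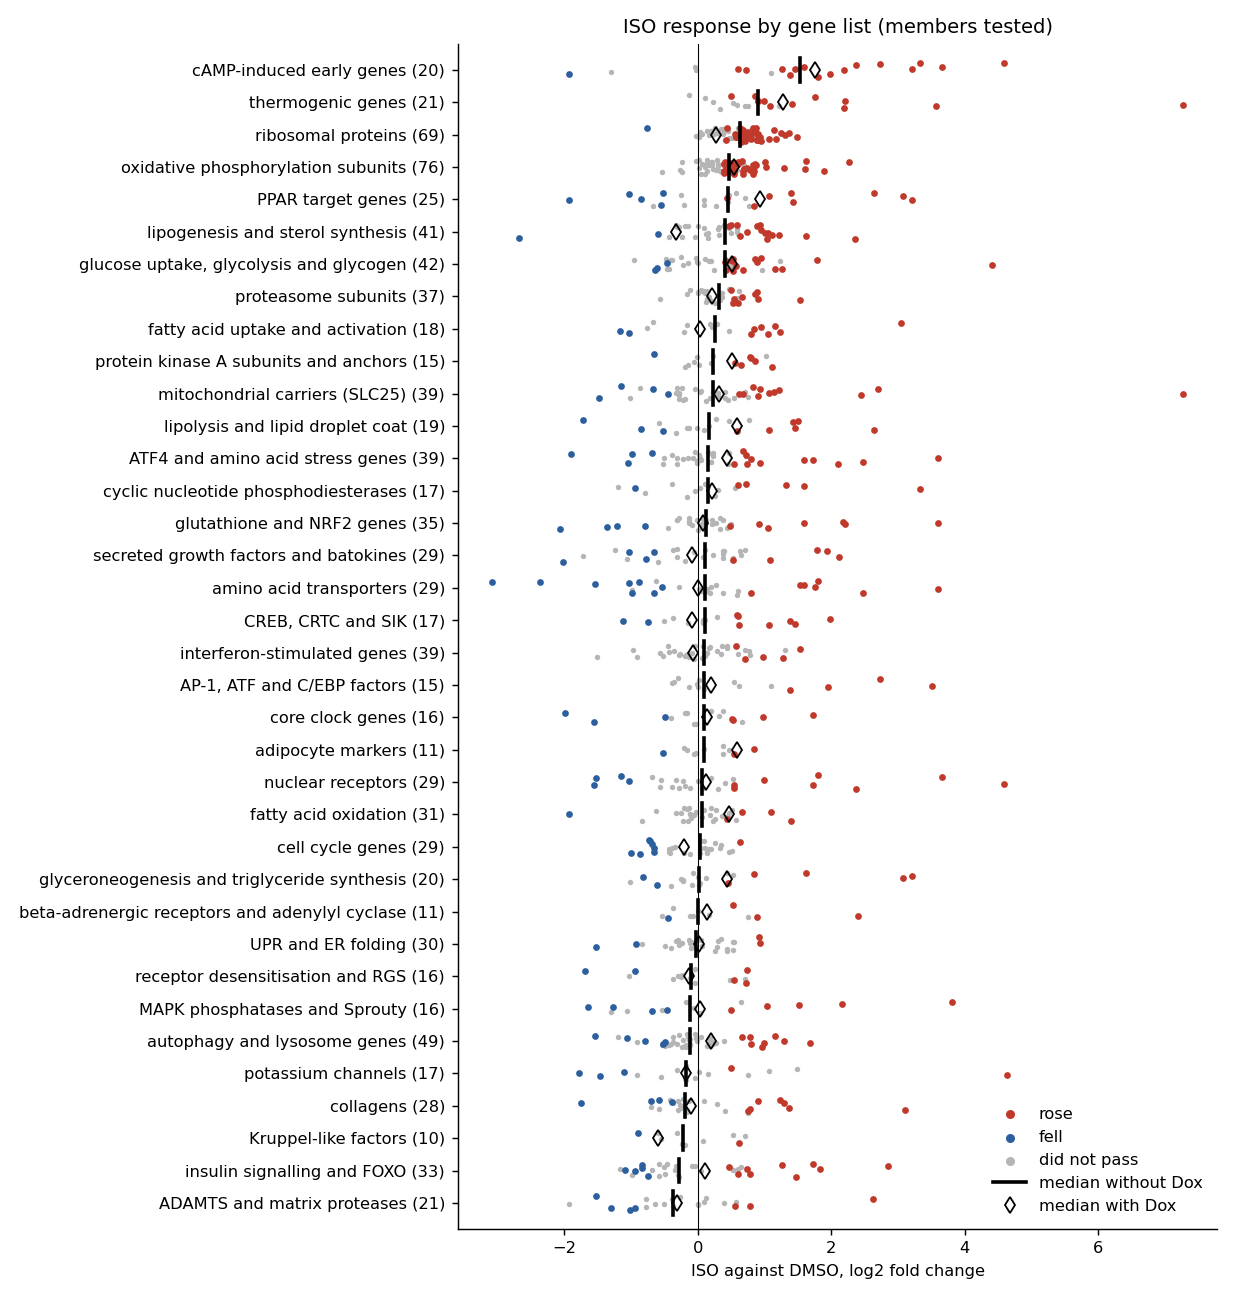
Log2FC of ISO against DMSO on the horizontal axis for the gene lists, with 1 point per tested member without Dox (red rose, blue fell, grey did not pass), a black line for the median without Dox, an open diamond for the median with Dox, and the number of members tested beside each list name. The cAMP-induced early genes have medians of 1.53 without and 1.76 with Dox, whereas fatty acid and sterol synthesis has 0.41 without and -0.32 with Dox.

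Of 42 genes of glucose uptake, glycolysis and glycogen, 15 rose and 3 fell, beside 14.5% and 13.5% of all genes, and the median log2FC was 0.41. Besides Gfpt2, which that list also holds, hexokinase Hk2 rose by 1.79, pyruvate kinase Pkm by 0.95 and phosphoglycerate mutase Pgam1 by 0.89. Among 33 genes of insulin signalling and FOXO factors 9 rose and 5 fell (7 and 4 without ISO replicate 2), with a median of -0.28. Less the median of all genes this was -0.2684, but -0.1163 without DMSO replicate 3, -0.1602 without ISO replicate 1 and -0.0375 with no filter on low counts. Irs1, an insulin receptor substrate, gave 29.4, 47.6 and 40.6 CPM with DMSO and 169, 109 and 133 CPM with ISO (1.83). Irs2 rose by 1.27, the growth kinase Mtor by 1.47 and the pseudokinase Trib1 by 2.85. Akt2, the main insulin-responsive AKT of adipocytes, fell by 0.94 and the mTORC1 inhibitor Sesn1 by 1.09. Amino acid transporters split into 7 that rose and 8 that fell of 29. Slc7a11, the cystine importer, was at least 7.19-fold higher against the floor, and the neutral amino acid carrier Slc1a4 rose by 2.48. Slc6a6 and the leucine-preferring transporter Slc43a1 (97.9, 85.7 and 93.3 CPM to 27.0, 36.7 and 31.5 CPM, -1.54) were among those that fell.

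Stress pathways differed in their counts. Of 30 genes of the unfolded protein response and ER folding 2 rose and 2 fell, below the 14.5% and 13.5% of all genes, with the median at -0.03 (less that of all genes, -0.0273 to 0.0659 without 1 library). The transcription factor Xbp1 rose by 0.94 and the ER degradation gene Herpud1 fell by 1.52. Of 39 ATF4 and amino acid stress genes 11 rose, above that share, and 4 fell, led upwards by Slc7a11, Slc1a4 and the aspartate aminotransferase Got1 (2.10) and downwards by cystathionine β-synthase Cbs (-1.91) and the serine synthesis enzyme Phgdh (-1.05). Among glutathione and NRF2 genes 7 of 35 rose and 4 fell. Sod2, the mitochondrial superoxide dismutase, gave 97.0, 66.7 and 73.0 CPM with DMSO and 425, 313 and 354 CPM with ISO (2.18), and sulfiredoxin Srxn1 rose by 2.21. The glutathione transferases Gstt1 and Gstm1 fell by 2.07 and 1.22. Of 49 autophagy and lysosome genes 8 rose and 5 fell, with Atg5 at 1.68. Interferon-stimulated genes gave 5 of 39 that rose and 0 that fell, among them Trim25 (1.53), and without ISO replicate 2 the counts were 3 and 1.

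Of 29 nuclear receptors tested 8 rose and 4 fell, beside 14.5% and 13.5% of all genes. Beside the Nr4a genes and Vdr, Esrra, a partner of PGC-1α, rose by 0.99 and Pparg, the master regulator of adipocytes, by 0.55, the latter not passing without DMSO replicate 3 (adjusted p = 0.0606) or with library totals only (0.113). Those that fell included the thyroid hormone receptor Thra (109, 107 and 126 CPM to 25.9, 49.6 and 42.0 CPM, -1.52), Nr1h3, the oxysterol receptor LXRα (178, 201 and 183 CPM to 68.1, 86.3 and 96.8 CPM, -1.14) and the retinoic acid receptor Rarg (-1.03). In Thra and Nr1h3 the highest ISO library was below the lowest DMSO library. Of 16 core clock genes 4 rose and 3 fell, Per3 among the latter. Arntl and Cry1 had adjusted p of 0.114 and 0.0834 at log2FC of 0.38 and 0.67. Among 6 clock output factors Nfil3, Bhlhe40 (1.65) and Usp2 (1.97) rose and Tef fell by 0.94. Of 10 Krüppel-like factors 1 rose and 1 fell, the latter being Klf15 (-0.89). Of 198 numbered zinc finger proteins 15 rose and 19 fell, both below the shares of all genes, with a median of -0.07 (less that of all genes, -0.098 to -0.0419 without 1 library). Without ISO replicate 2, 17 of them rose and 13 fell.

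Of 29 secreted growth factors and batokines 5 rose and 4 fell, near the 14.5% and 13.5% of all genes. Fgf2, a fibroblast growth factor, gave 42.7, 28.6 and 49.7 CPM with DMSO and 179, 165 and 87.1 CPM with ISO (1.78), while Metrnl, a hormone linked to browning, rose by 2.12, the cytokine Clcf1 by 1.94, and the growth factor Pdgfd fell by 2.03. Of 28 collagens 7 rose and 4 fell, with Col14a1 at 3.10, the basement membrane collagen Col4a2 at 1.24 and the fibrillar collagen Col1a2 at -0.58. Among ADAMTS and matrix proteases 3 of 21 rose and 4 fell, with Adamts9 at 2.62 and Adamts10 at -1.52. Of 17 potassium channels 2 rose and 3 fell. Kcng3, a modifying subunit of voltage-gated channels, had 0, 0 and 2 counts with DMSO and 18, 21 and 26 counts with ISO, at least 6.11-fold higher against the floor. Ackr3, a scavenging chemokine receptor, had 0, 0 and 1 counts with DMSO and 23, 17 and 11 counts with ISO, at least 5.10-fold higher.

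The largest falls among genes with at least 10 counts in every DMSO library were found in varied classes. Slc40a1, the iron exporter ferroportin, gave 20.5, 20.4 and 17.2 CPM with DMSO and 1.08, 1.98 and 3.00 CPM with ISO, a log2FC of -3.12 ± 0.46. Pik3ip1, an inhibitor of PI3 kinase, fell by 2.74, the adaptor Sh2d3c by 2.70 and Mettl7a1 by 2.59. Of 29 cell cycle genes 1 rose and 7 fell, beside 14.5% and 13.5% of all genes, with the proliferation marker Mki67 at -1.0 and topoisomerase Top2a at -0.65. The list's median log2FC was 0.03, but less the median of all genes it lay between -0.0619 and -0.0013 when any 1 of the 6 libraries was left out.

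Some genes were at 3 counts or fewer in every library of one treatment and above that in every library of the other. There were 71 such genes higher with ISO, of which 27 had been tested, and 42 lower with ISO, of which 16 had been tested. The rule was set on raw counts and so depended on depth. A level of 3 counts stood for a mean of 3.265 CPM with DMSO but 2.823 CPM with ISO. The 71 against 42 therefore does not measure a direction of the response. By level per length, the leading genes higher with ISO included Ndufb7, a subunit of complex I with 3, 3 and 3 counts against 11, 10 and 11, and Ly6a, which encodes the surface protein Sca-1, with 3, 2 and 2 counts against 24, 27 and 30 (at least 7.68-fold). The Ndufb7 result (1.6, adjusted p = 0.0117) did not pass without DMSO replicate 1 (1.46, adjusted p = 0.0603). The other 4 that the order names were Emc6, Spsb2, Rom1 and Wdr83os. Lower with ISO were Eva1b, Ccl27a, Vwa1, Pyroxd1, Rnf39 and Agrp, among which the matrix protein gene Vwa1 had 13, 9 and 9 counts with DMSO and 1, 1 and 3 with ISO, at least 3.89-fold lower. Agrp (adjusted p = 0.0452) did not pass with DESeq2 (0.0521), with limma-voom (0.121) or in 5 of the 6 fits that each left out 1 library without Dox.

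Markers of cell types were compared as lists. Adipocyte markers summed to 3577 to 4224 CPM with DMSO and 4642 to 4830 CPM with ISO, and of 11 tested 2 rose and 1 fell, near the 14.5% and 13.5% of all genes. Preadipocyte and fibroblast markers summed to 1332 to 1479 CPM with DMSO and 1191 to 1506 CPM with ISO, which overlapped. Of 8 tested in that list, Ly6a rose and Pdgfrb, a receptor of mesenchymal cells, fell from 125, 139 and 119 CPM to 55.1, 56.5 and 54.0 CPM (-1.20). Macrophage markers summed to only 17.7 to 28.4 CPM with DMSO and 11.9 to 22.8 CPM with ISO, and 1 of 10 was tested. Of 8 endothelial markers Kdr and Tie1 were at 0 and Tek rose (1.25), though not without ISO replicate 2 (1.09, adjusted p = 0.0629) or DMSO replicate 1 (0.87, adjusted p = 0.132). Skeletal muscle markers summed to 17.8 to 34.5 CPM with DMSO and 15.1 to 25.8 CPM with ISO, and 1 of 10 was tested (-0.18). Of the 10, Myod1, Myog, Myf5 and Myf6 were at 0. With bulk libraries, fewer cells of a type and less RNA per cell cannot be told apart.

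The responses of the knockdown cells were then set beside those of the rescued cells. With Dox, ISO raised 1669 genes (16.4%) and lowered 1640 (16.1%), with 633 called higher (6.22%) and 701 called lower (6.89%). Of the 591 genes called higher in knockdown cells, 429 also rose with Dox, 332 were also called higher, 565 had the same sign, and the median log2FC was 1.14 with Dox against 1.37 without. Of the 517 called lower, 339 also fell with Dox, 245 were also called lower and 494 had the same sign, with a median of -1.01 with Dox against -1.32. These genes were chosen for large values without Dox, so a smaller median with Dox carries no information on a difference. The control libraries of both comparisons were separate.

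**Figure D5:**
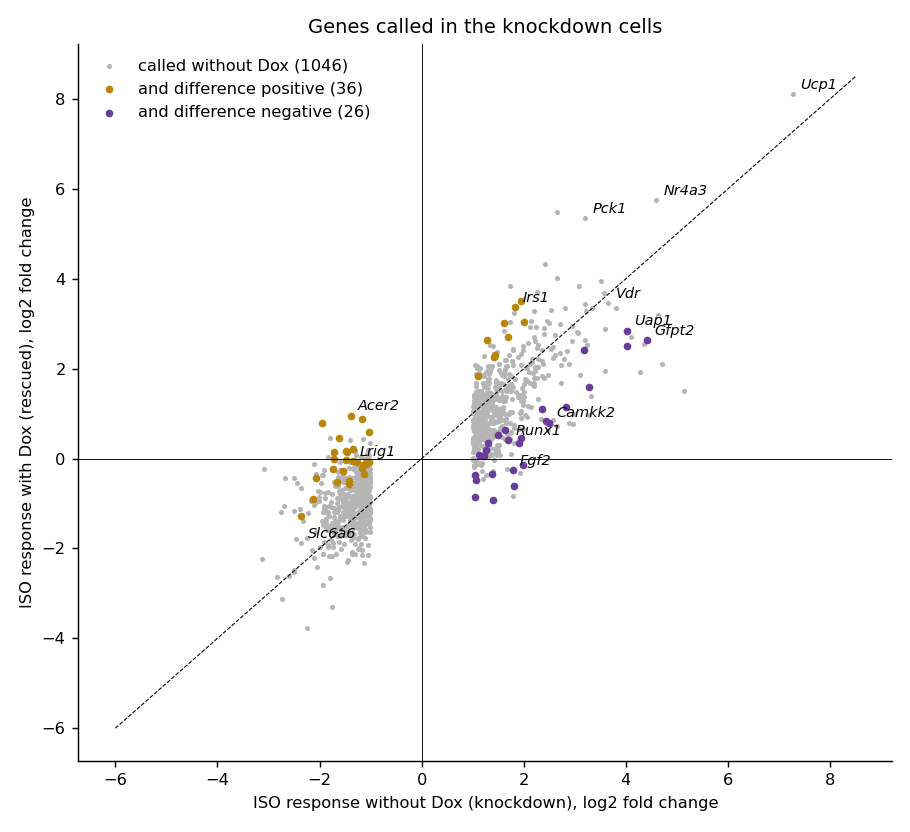
Log2FC of ISO against DMSO without Dox on the horizontal axis and with Dox on the vertical axis, 1 point per gene called without Dox, with a dashed line of equal response. Coloured points are the genes whose difference passed, 36 with a positive sign (Acer2 and Lrig1 among them) and 26 with a negative sign (Camkk2 and Fgf2 among them).

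Of the 20 early cAMP genes 15 rose and 1 fell without Dox, and 16 rose and 2 fell with Dox. Their median log2FC was 1.53 without and 1.76 with Dox, and the difference between the responses passed in 0 of them. Nr4a1 had log2FC of 1.80 without and 1.59 with Dox, Crem 1.46 and 1.69, Vdr 3.66 and 3.46 and Pde10a 3.33 and 3.36. Ppargc1a had 2.19 and 3.28 (adjusted p of the difference = 0.234). For thermogenic genes the medians were 0.90 and 1.28, and for oxidative phosphorylation 0.47 and 0.54, with 39 and 50 genes that rose. Ribosomal proteins had 0.63 and 0.27, with 39 genes that rose without Dox and 12 with it, and the difference passed in 0 of them. The median of the 2036 genes of shortest counted length was 0.10 without and -0.05 with Dox. Of the genes that fell, Slc6a6 had -2.36 and -1.89 and Per3 -1.98 and -1.98. A test that does not pass does not show that responses were equal.

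The difference between the responses, with Dox minus without, was tested for each gene. It passed with a positive sign in 164 genes (1.61%) and with a negative sign in 58 (0.57%). Among PPAR target genes it was positive in 9 of 25 and negative in 0, and 18 rose with Dox against 8 without. In fatty acid oxidation it was positive in 5 of 31 and negative in 0, with 16 that rose with Dox against 4. Of the 5, Crat, Acadm and Acadl, of which the latter pair was named after its values were seen, failed to pass in 10, 8 and 6 of the 12 fits that each left out 1 library. Acsl1, an acyl-CoA synthetase, went from 157, 229 and 177 CPM to 362, 400 and 314 CPM without Dox (0.94) and from 223, 316 and 218 CPM to 1562, 1388 and 1530 CPM with Dox (2.57), a difference of 1.63 (adjusted p = 0.00017). Pdk4 went from 196, 93.7 and 144 CPM to 803, 532 and 726 CPM with Dox (2.21), a difference of 1.76 (adjusted p = 0.00616). Cidec, which fell without Dox, went from 423, 432 and 347 CPM to 746, 814 and 735 CPM with Dox, a difference of 1.45 (adjusted p = 0.000397). In these 3 genes the ISO libraries with Dox lay above all other libraries of the comparison. Dgat1 rose in both states, by 1.62 without and 3.02 with Dox, a difference of 1.40. Of the adipocyte markers 9 rose with Dox against 2 without, and the difference was positive in 3 of 11, of which Adipoq, named after its values were seen, failed in 8 of the 12 fits. Named after their values were seen, the lipase Mgll had -0.01 without and 1.19 with Dox and the fatty acid binding protein Fabp4 0.46 and 2.38. The Fabp4 difference of 1.92 rested on 73 counted bases, and it did not pass without DMSO replicate 1, DMSO replicate 3 or ISO replicate 2 of the cells without Dox (adjusted p = 0.0974, 0.064 and 0.0504). Plin2, Pck1 and Ppara had adjusted p of the difference of 0.252, 0.24 and 0.114.

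A negative difference was less frequent. In fatty acid and sterol synthesis the difference was negative in 7 of 41 genes and positive in 0, and with Dox 5 rose and 8 fell. Pmvk had 1.21 without and 0.05 with Dox and Hsd17b7 2.35 and 1.1, and their differences failed to pass in 7 and 9 of the 12 fits that each left out 1 library. Others of the 7, named after their values were seen, were Acly, Fdps and Mvk, which failed in 10, 9 and 6 of these fits. Fgf2 had 1.78 without Dox but -0.26 with Dox, where it gave 60.7, 41.6 and 51.7 CPM with DMSO and 46.7, 42.5 and 42.4 CPM with ISO, a difference of -2.04 (adjusted p = 0.000507). The hexosamine genes Gfpt2 and Uap1 rose in both states, by 4.42 and 4.02 without Dox and by 2.63 and 2.84 with Dox, and their differences were -1.79 (adjusted p = 0.00445) and -1.18 (adjusted p = 0.0115). Camkk2, a kinase upstream of AMPK, rose from 24.0, 19.0 and 21.3 CPM to 146, 118 and 106 CPM without Dox (2.49), had 0.80 with Dox and differed by -1.69. Cyp2ab1 (2.83 and 1.15) and Runx1 (1.70 and 0.41), a transcription factor, differed by -1.68 and -1.29.

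A few genes moved in opposite directions in the 2 states, namely 1 of the 591 called higher and 4 of the 517 called lower that passed with the other sign with Dox. Acer2, a ceramidase, gave 64.1, 49.0 and 45.7 CPM with DMSO and 13.0, 23.8 and 23.3 CPM with ISO without Dox (-1.38), but 72.7, 55.2 and 49.4 CPM with DMSO and 153, 101 and 100 CPM with ISO with Dox (0.95), a difference of 2.34 (adjusted p = 8.91e-05). Dhrs3, a retinaldehyde reductase, gave 73.8, 57.1 and 58.8 CPM with DMSO and 32.4, 25.8 and 27.8 CPM with ISO without Dox (-1.16), and 81.4, 65.6 and 74.2 CPM with DMSO and 139, 133 and 140 CPM with ISO with Dox (0.88), a difference of 2.04 (adjusted p = 4.62e-06). In both genes the DMSO libraries of the 2 states overlapped, and the ISO libraries did not. Gramd1b, a sterol transporter at membrane contacts, had -1.04 and 0.60, and Fam214a -1.47 and 0.16. Lrig1 fell by 1.35 without Dox and had -0.06 with Dox, a difference of 1.29 (adjusted p = 9.46e-05), and Nr1h3 had -1.14 and -0.14, a difference of 1.00.

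Some of the genes named here overlap another annotated gene on the opposite strand, and no source says that reads were counted by strand, which leaves their values uncertain. These include Pde10a, Cpne8, Lamb1, Lrig1, Lzts2, Ctps2, Ivns1abp, Rad54b, Adcy3, Fosl1, Egr1, Slc25a25, Gyk, Fgf2, Irs1, Irs2, Esrra, Crat, Ehhadh, Hk2, Acaca, Atp5o, Bhlhe40, Usp2, Herpud1, Pik3ip1, Sh2d3c, Vwa1, Ccl27a, Spsb2, Pyroxd1, Mtor, Runx1 and Gramd1b. Over the named genes, 69 of 263 overlap an annotated gene on the other strand in GENCODE vM1.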

How the data were processed

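RNA was measured as reads per gene in 18 libraries, 3 in each of 6 groups, described by the authors as independent experiments. According to the methods and the submitters' processing notes, the authors aligned reads to mm9 with STAR 2.4.2a, thinned them with HOMER and counted them with iRNA-seq, for which the methods name its gene option. They deposited whole-number counts without normalisation. The counted length per gene lay within 10% of the annotated intron length for 72.6% of 16536 matched genes and within 10% of the exon length for 2.27%, so the counts were taken as intron reads. Starts are 1-based on mm9.

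All 18 libraries were fitted with edgeR 4.0.16 in R 4.3.3 (quasi-likelihood, TMM, 1 mean per group, filterByExpr), which tested 10178 of 17672 genes and left out 7494. TMM factors of the 6 libraries without Dox ran from 0.905 to 1.13, the common dispersion was 0.0176 and the biological coefficient of variation 0.133. Tests were two-sided, with Benjamini-Hochberg adjustment over all genes tested. The fit was tested on simulated data with known fold changes. Counts of replicates differed by more than sampling noise, so each was taken as a sample. With 3 libraries per group p-values measure the spread between these samples. Bounds against a floor set the mean level of the higher group against 3 counts per library in the other group. They make no allowance for counting error or for the spread between libraries.

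The comparison, the 42 gene lists and the tests were chosen with earlier results of these data known. Named genes were Abhd5 and the 10 genes of smallest p called in each direction without overlap of libraries. Added were the 5 largest rises and falls with at least 10 counts in every library of the higher group. Up to 4 members of each list per direction, 17 further genes listed by name and the leading switched genes by level per length followed. The last were the 5 genes of smallest p for the difference in each direction, taken only among genes called without Dox. Not all are printed, and some genes are not reported here. Genes outside the rule are said to be so. Alternatives were other scalings, filters and tools (DESeq2 1.42.0, limma-voom 3.58.1), a block, stricter thresholds and leaving out each library. Leaving out ISO replicate 2 for the list counts was chosen after seeing the data. Promoters were read from a RefSeq table on GRCm38.p6.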

Additional observations from a re-analysis of the deposited data

Results flagged for a closer look

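The results below are from named genes whose response to ISO passed the test of a difference between cells with and without Dox, given as the log2 response with Dox minus that without. Many of these genes were named for a strong response without Dox, which by itself draws the difference towards the opposite sign.

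Among lipid genes the difference was 1.63 for Acsl1, 1.73 for Agpat9, 1.29 for Aqp7, 1.45 for Cidec, 1.40 for Dgat1, 0.74 for Crat, 1.17 for the peroxisome factor Pex11a, 1.76 for Pdk4, 0.97 for Pde3b, -1.26 for Hsd17b7 and -1.16 for Pmvk. Of the 12 fits that each left out 1 library, 10 lost the result for Crat, 9 for Hsd17b7, 8 for Pde3b and 7 for Pmvk.

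For signalling and transcription it was 1.54 for Irs1, 0.78 for Sik2, 1.00 for Nr1h3, -1.29 for Runx1, -1.69 for Camkk2, -2.04 for Fgf2 and 0.85 for Nampt. Irs1 did not pass without DMSO with Dox replicate 1 (adjusted p = 0.0542), Sik2 not in 5 of the 12 fits and Nampt not in 3.

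Other genes gave 2.34 for Acer2, 2.04 for Dhrs3, 1.62 for Fam214a, 1.64 for Gramd1b, 1.29 for Lrig1, 1.08 for Fam13a, 0.92 for Ivns1abp, 1.26 for Slc43a1, 1.26 for the proteasome subunit Psma1, 0.72 for the autophagy gene Atg101, -0.75 for Cpne8, -1.68 for Cyp2ab1, -1.79 for Gfpt2 and -1.18 for Uap1. Cpne8 did not pass in 11 of the 12 fits, Atg101 not in 10 and Fam13a not in 3.

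Abhd5 itself had a difference of -0.98 (adjusted p = 0.0194). It did not pass in 3 of the 12 fits (adjusted p = 0.0162 to 0.082 over the 12). Of 44 named genes whose difference passed, 24 passed under every alternative and 20 did not pass in at least 1.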

How the results depend on the processing

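Of 591 genes called higher and 517 called lower, library totals only gave 411 and 833 (838 rose), at least 10 counts in every library 345 and 236, and glmTreat, which tests for changes beyond 2-fold, 147 and 37. DESeq2 gave 550 and 466, limma-voom 561 and 492, no filter on low counts 669 and 531, and leaving out 1 library 501 to 645 and 396 to 553. At an adjusted p of 0.01, 917 rose and 753 fell. The median of all genes was 0.0001 with at least 10 counts, -0.1859 with library totals, 0.0104 with no filter, 0.0016 with only the groups compared, -0.0580 with upper-quartile factors and -0.0148 to -0.0003 without 1 library.

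The difference between responses was called higher in 91 genes and lower in 42. Called lower were 25 with DESeq2, 19 with library totals and 82 with no filter. At an adjusted p of 0.01 these were 58 and 11, with glmTreat 3 and 0, and without 1 library 62 to 145 and 25 to 52. Replicate numbers gave weak correlations of deviations (0.0793, 0.1625 and 0.1492 without Dox, 0.2334, 0.2617 and 0.1648 with Dox), 1 of the 6 under the 0.1 set for pairing, although every library correlated best with its own number. A replicate block in the fit gave 612 genes called higher and 551 lower, and the difference was called higher in 143 and lower in 92. Under this block Adrb3 (0.82, adjusted p = 0.0344), Pdk4 (0.48, 0.0311) and Cry1 (0.70, 0.0424) passed.

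Less the median of all genes, the median of insulin signalling genes was -0.0909 with at least 10 counts in every library, -0.1751 with a mean of at least 10, -0.0375 with no filter and -0.2699 to -0.1163 without 1 library. That of PPAR targets was 0.2238 to 0.5285 and that of glucose genes 0.3011 to 0.4636 without 1 library, and that of amino acid transporters 0.0164 with no filter. The causes were not tested. Modest changes of genes with few counts may be missed at this depth.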
